A study of Mus musculus and Rattus norvegicus with 79 samples.

Results

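Glucocorticoid receptor (GR) peaks that were called against input chromatin but overlapped no peak called against GR-deficient chromatin by 1 bp or more were examined in mouse liver at ZT10, 10 h after lights on. There were 17912 such input-only peaks, which is 75.6% of the 23683 peaks in the list called against input and part of 42226 peaks over both lists. The other 5771 peaks of the input list were shared, and 12771 of the 18543 peaks of the list called against knockout chromatin overlapped none of the input list (knockout-only peaks). ChIP came from liver of unfed mice, with a cocktail of 3 GR antibodies. One GR immunoprecipitate and an input were labelled C57BL/6 without virus; the library numbers in their descriptions are exchanged between them, so which is the input rests on their titles alone. A GR_WT immunoprecipitate was labelled Nr3c1fl/fl with AAV-tbg-GFP, and a GR_LGRKO immunoprecipitate Nr3c1fl/fl with AAV-tbg-CRE. The labels do not give which immunoprecipitates entered which list, and the lists hold no score and no value per replicate. An input-only peak is therefore a difference between 2 lists of calls, with no measured signal in knockout chromatin behind it.

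RNA was measured in liver of 2 sets of mice under night-restricted feeding, with 3 libraries per group. Nr3c1fl/fl mice, whose Nr3c1 gene for GR is flanked by loxP sites, received AAV-tbg-GFP (GFP group) or AAV-tbg-CRE (CRE group) 10 days before collection at 6 times: unfed at ZT10 and ZT12, fed at ZT13, ZT14, ZT18 and ZT22. C57BL/6 mice without virus were collected unfed at ZT10 and, at the 4 times from ZT13 to ZT22 named above, either fed or unfed. The tbg promoter directs expression to hepatocytes, so Cre deletes GR there and other liver cells keep the gene. Normalised Nr3c1 counts (counts per 1 Mio reads after TMM scaling, CPM) ran from 102 to 201 (median 127) over the 18 CRE libraries and from 147 to 323 (median 213) over the 18 GFP libraries. At each of the 6 times all CRE libraries lay below all GFP libraries, and Nr3c1 fell by 0.63 ± 0.06 (log2, SE; adjusted p = 1.8e-09). The ribosomal RNA row NR_046233 took over 20% of counts in 6 of the 36 libraries, 5 of them GFP (all 3 at ZT10 and 2 at ZT12) and 1 CRE (ZT10). Among the C57BL/6 libraries 2 stood apart: the fed ZT14 replicate 1 had 59.3 CPM of Krt19, a bile duct keratin, and 24.9 CPM of Myh11, a smooth muscle myosin, and the unfed ZT18 replicate 3 had 92.5 CPM of the pancreatic protease gene Ctrb1. The other 25 libraries had at most 2.76, 5.50 and 0.501 CPM of these genes. In whole liver, fewer cells of a type and less RNA per cell cannot be told apart.

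GR is a nuclear receptor that enters the nucleus when it binds glucocorticoid hormone. It binds DNA as a dimer at palindromic elements whose core reads ACANNNTGT, and it also occupies open chromatin alongside other hepatocyte factors such as C/EBP, FOXA and STAT5 proteins. In liver it is known for driving fasting metabolism, including gluconeogenesis and amino acid breakdown, and for restraining inflammation.

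Sequence was at hand only for 300-base promoter windows (250 bases before and 50 after a RefSeq start site, GRCm38.p6, the assembly of mm10). Of these windows, 159 input-only peaks lay wholly inside one. The 7 sequences shown here belong to genes whose RNA changed in CRE liver (next paragraphs): the 4 with the largest decrease and the 3 with the largest increase among those promoters, chosen after their values were seen. Each is the part of the peak upstream of the start site, on the gene's strand. Capitals mark matches, on either strand, to the letters ACANNNTGT (GR), TTGCNNAA (C/EBP), TGTTTAC (FOXA) or TTCNNNGAA (STAT).
1810053B23Rik: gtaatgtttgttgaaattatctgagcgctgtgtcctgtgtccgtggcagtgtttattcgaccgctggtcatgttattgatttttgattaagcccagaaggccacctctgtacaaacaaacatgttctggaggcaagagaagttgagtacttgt
Fam107a: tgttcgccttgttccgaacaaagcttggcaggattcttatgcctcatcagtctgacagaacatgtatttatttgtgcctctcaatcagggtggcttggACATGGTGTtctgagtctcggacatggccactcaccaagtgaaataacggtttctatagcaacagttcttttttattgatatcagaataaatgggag
Acnat2: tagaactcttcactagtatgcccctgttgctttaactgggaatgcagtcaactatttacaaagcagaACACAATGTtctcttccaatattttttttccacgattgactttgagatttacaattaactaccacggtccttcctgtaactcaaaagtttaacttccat
E030018B13Rik: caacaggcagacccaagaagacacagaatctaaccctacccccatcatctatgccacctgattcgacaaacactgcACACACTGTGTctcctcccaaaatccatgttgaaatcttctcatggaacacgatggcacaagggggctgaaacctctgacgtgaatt
Slc22a26: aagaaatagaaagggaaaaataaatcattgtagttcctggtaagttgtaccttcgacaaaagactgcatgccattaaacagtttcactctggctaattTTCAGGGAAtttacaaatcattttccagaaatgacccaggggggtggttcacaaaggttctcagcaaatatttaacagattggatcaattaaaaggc
Slc22a28: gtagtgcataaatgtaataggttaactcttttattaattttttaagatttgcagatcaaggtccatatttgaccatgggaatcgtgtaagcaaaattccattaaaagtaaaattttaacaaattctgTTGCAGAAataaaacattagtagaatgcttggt
Sucnr1: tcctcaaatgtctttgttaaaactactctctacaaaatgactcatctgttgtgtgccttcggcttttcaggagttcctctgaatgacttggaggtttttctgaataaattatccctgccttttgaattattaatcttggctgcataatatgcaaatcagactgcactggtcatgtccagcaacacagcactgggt

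The 1810053B23Rik sequence (chr16:93354072-93354224, minus strand) held none of the 4 sets of letters. The Fam107a sequence (chr14:8309799-8309993, minus strand) held the GR letters at bases 99 to 107, centred 112 bases before the start site. The Acnat2 sequence (chr4:49408152-49408317, minus strand) held them at bases 68 to 76, centred 95 bases before the start site. The E030018B13Rik sequence (chr7:63916694-63916856, plus strand) held 2 overlapping GR matches, at bases 77 to 85 and 79 to 87. The Slc22a26 sequence (chr19:7802712-7802906, minus strand) held the STAT letters at bases 99 to 107, centred 137 bases before the start site, and no GR match. The Slc22a28 sequence (chr19:8131983-8132142, minus strand) held the C/EBP letters at bases 128 to 135, centred 29 bases before the start site. The Sucnr1 sequence (chr3:60081673-60081867, plus strand) held none of the 4. Bases are counted from 1 at the 5′ end. A match is a description of letters in these windows and does not show a bound site.

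The genes downstream of the first 4 sequences had less RNA in CRE than in GFP liver in the mean of 6 times. At ZT10 alone, 0 of the 97 tested genes with a peak wholly inside a promoter window passed the test. These include the 7 with printed sequences. Over all genes tested, 0.694% passed at ZT10. Fam107a, which encodes an actin-associated protein known to be induced by glucocorticoids, had 0 to 0.252 CPM in the CRE libraries and 0 to 20.6 CPM in the GFP libraries (median 1.70). In the GFP group it was at 0.119, 0.193 and 0 CPM at ZT10, the time of the ChIP, and at 6.99, 20.6 and 6.54 CPM at ZT13. All GFP libraries lay above all CRE libraries from ZT12 on, and the mean difference over the 6 times was −3.60 ± 0.58 (log2, SE; adjusted p = 4.0e-05). Acnat2, an acyl-CoA:amino acid N-acyltransferase, had 40.2, 28.9 and 21.6 CPM in the 3 GFP libraries at ZT18 against 9.90, 5.15 and 9.68 CPM in the CRE libraries. Its CRE mean was below the GFP mean at all 6 times, and it fell by 1.50 ± 0.21 (adjusted p = 7.4e-06). E030018B13Rik had a median of 15 CPM in GFP and 5.58 CPM in CRE libraries, and fell by 1.46 ± 0.14 (log2, SE; adjusted p = 5.0e-09). It lies within the interval of Klf13, and without known strand handling in the counting their reads cannot be told apart. 1810053B23Rik, a long non-coding RNA, was at 0 to 1.01 CPM in CRE and 0.140 to 8.15 CPM in GFP libraries (log2 difference −3.72 ± 0.48, adjusted p = 1.8e-06). These 4 genes differ in their surroundings: Acnat2 had 3 input-only peaks within 25 kb of the gene and no knockout-list peak there, whereas 1810053B23Rik, Fam107a and E030018B13Rik also had peaks of the knockout list within 25 kb.

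The last 3 sequences precede genes with more RNA in CRE liver, and none of them had a knockout-list peak within 25 kb. The nearest knockout-list or shared peak was 286 kb from Slc22a26, 436 kb from Slc22a28 and 30.1 kb from Sucnr1. Slc22a26, of the organic anion transporter family, had 0.055 to 1.36 CPM in GFP and 0.842 to 21.0 CPM in CRE libraries. The 3 CRE libraries lay above the 3 GFP libraries at each of the 6 times (log2 difference 3.27 ± 0.32, adjusted p = 9.9e-09). Slc22a28, of the same family, rose by 1.05 ± 0.20 (adjusted p = 0.00030), from a median of 23.6 to 67.2 CPM. Sucnr1, the succinate receptor, rose by 0.95 ± 0.10 (adjusted p = 8.2e-08), and its CRE libraries, at 15.7 to 44.6 CPM, lay above the GFP libraries of the same time at all 6 times. Slc22a26 and Slc22a28 have close relatives in the genome, so their counts are uncertain in how reads were divided among copies.

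**Figure D1:**
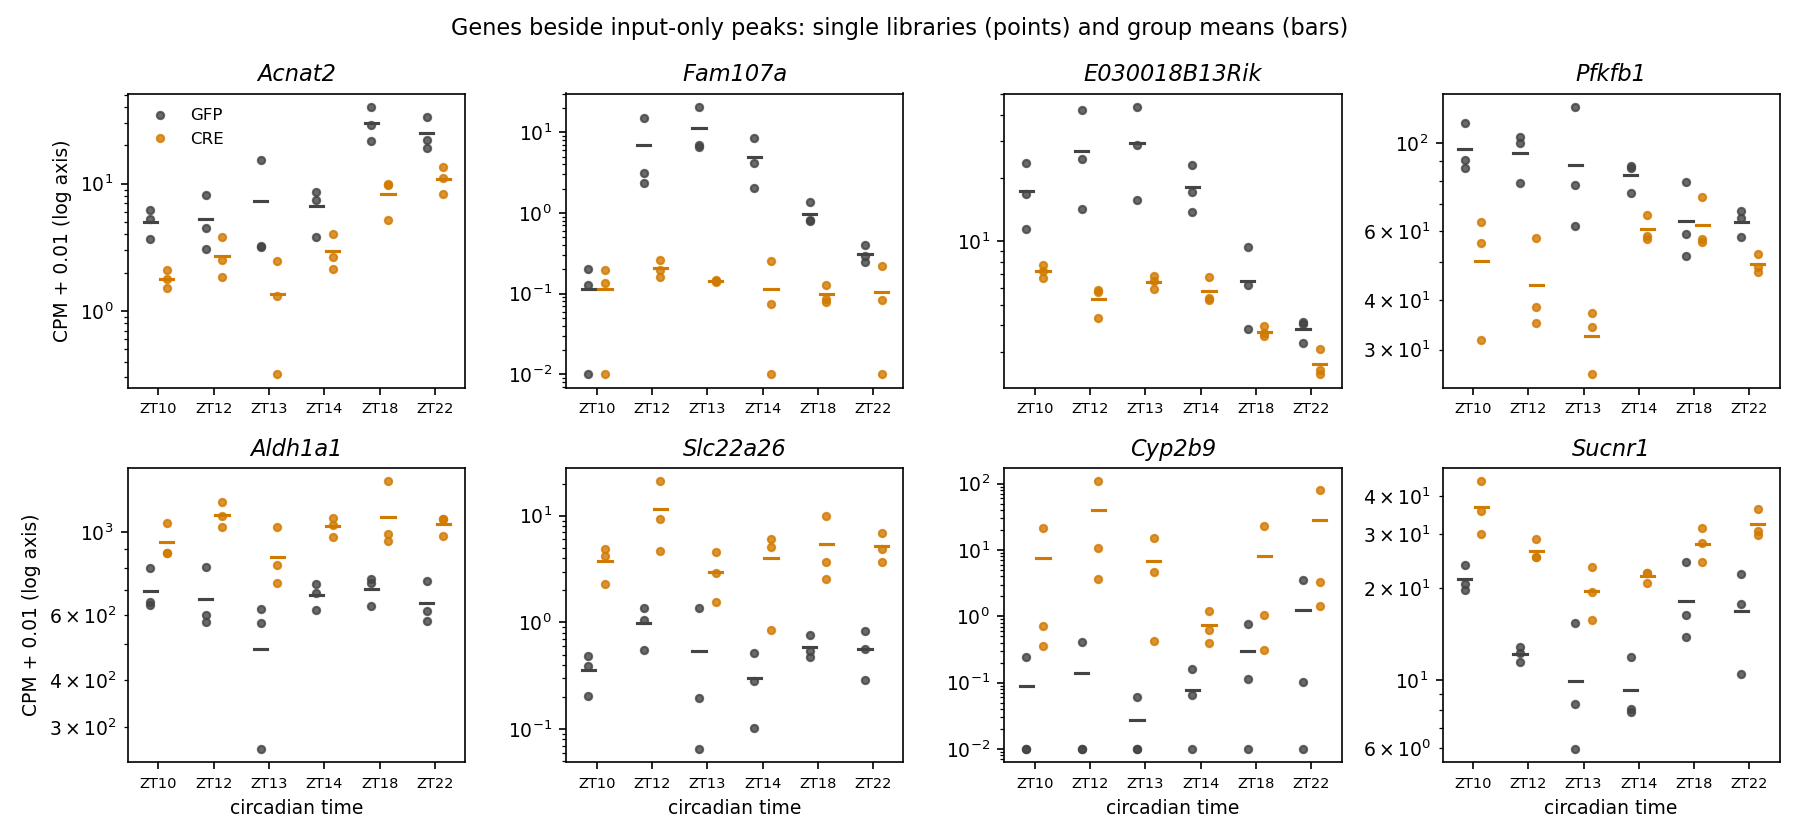
CPM of 8 genes with input-only peaks nearby, on log axes, in the GFP (grey) and CRE (orange) groups at 6 times; points are single libraries, with 0.01 added, and bars are group means of 3. Acnat2, Fam107a, E030018B13Rik and Pfkfb1 sit lower in CRE at most times, and Aldh1a1, Slc22a26, Cyp2b9 and Sucnr1 sit higher.

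Start sites under a peak were counted next, as a set chosen without the RNA. Input-only peaks covered 253 start sites of 227 genes, of which 141 were tested. In the mean of 6 times, 19 of the 141 genes were higher and 21 lower in CRE, which is 28.4% called, where 14.6% of all 15712 genes tested were called. The share was 44.2% of 52 genes tested with a start under a shared peak and 15.1% of 548 genes with a start under a knockout-only peak. Of the 141 genes, the 45 with no knockout-list peak within 25 kb of the gene had 28.9% called (7 higher, 6 lower), and the other 96 had 28.1% (12 higher, 15 lower). At ZT10 alone 1 of the 141 genes, Pfkfb1, was called, beside a background of 0.694%. Without the 6 libraries with over 20% NR_046233, which leaves ZT12 to ZT22, 16.2% of 142 genes with a start under an input-only peak were called (12 higher, 11 lower), beside 8.36% of all genes. That fit has 1 GFP library at ZT12, which is assumed to vary like the other groups. Peaks of 1 list are not replicates, so these shares carry no test.

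Motif letters and base composition were counted in the promoter sequences under each class of peak, with no test. The GR letters ACANNNTGT occurred in 22 of the 159 sequences of 195 bases centred on input-only peaks (13.8%), in 21.0% of 81 at shared peaks, in 2.37% of 295 at knockout-only peaks and in 4.40% of 32843 promoter windows cut to the same length. C/EBP letters were in 23.9% at input-only, 24.7% at shared and 5.76% at knockout-only peaks, with 7.30% over all windows. STAT letters (TTCNNNGAA) were in 17%, 17.3%, 6.44% and 5.35%, and FOXA letters (TGTTTAC) in 8.81%, 4.94%, 1.02% and 2.45%, in the same order. The GC box GGGCGG, bound by SP factors, ran the other way, with 17% at input-only, 12.3% at shared, 47.1% at knockout-only peaks and 30.6% over all windows. ETS letters (CCGGAAG) were in 6.29%, 1.23%, 16.6% and 6.10%. Median GC content was 46.2% at input-only, 48.2% at shared and 61.0% at knockout-only peaks, with 52.8% over all windows. The median number of CpG pairs was 3, 2, 15 and 5 in the same order. How far base composition set the motif shares was not tested. The CCAAT box (CCAAT) varied little, between 27.1% and 29.6%. AP-1 letters (TGANTCA) stood at 5.03% and E-box letters (CACGTG) at 5.03% of input-only sequences, beside 5.36% and 5.14% of all windows. HNF4 letters (CAAAGTCCA) were in 2 input-only sequences (1.26%) and 0.317% of all windows, and the cAMP element TGACGTCA in 1 (0.629%) and 1.45%.

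**Figure D2:**
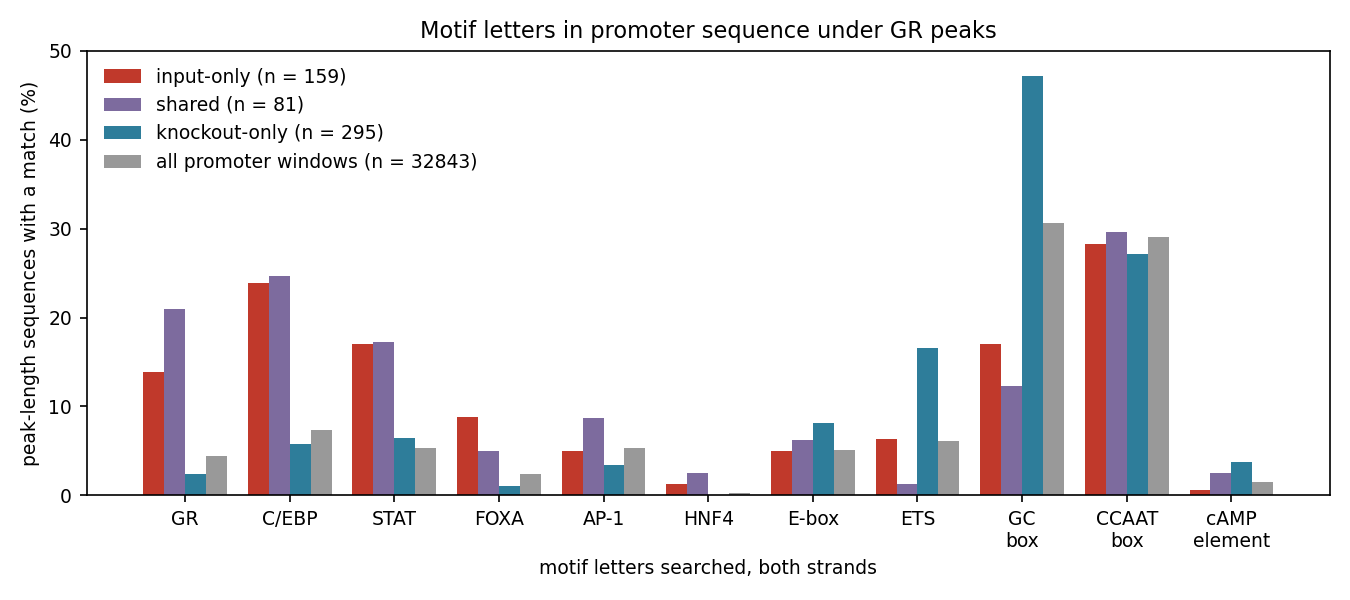
Percent of 195-base promoter sequences that hold each motif's letters on either strand, for input-only, shared and knockout-only peaks and for all promoter windows. GR letters were in 13.8% of input-only and 2.37% of knockout-only sequences, and GC boxes in 17% and 47.1%.

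Most input-only peaks lay far from start sites. The median distance from peak centre to the nearest start was 20.8 kb over 17274 input-only peaks on chromosomes with start sites in the promoter table (the 636 on chromosome 18 and the 2 on the mitochondrial genome were not analysed for start sites or promoter sequence), against 17 kb for shared and 11 kb for knockout-only peaks. Within 1 kb of a start lay 7.57% of input-only, 8.25% of shared and 23.5% of knockout-only peaks. Beyond 100 kb lay 14.6%, 10.7% and 7.22%. Protein-coding gene intervals held 56.3% of input-only peaks, and 78.5% were inside or within 25 kb of one.

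Input-only peaks were not all isolated from the knockout list. The median gap to the nearest knockout-list peak was 12.8 kb (quartiles 3.25 and 45.2 kb), 592 peaks (3.31%) had one within 100 bp, and 2440 (13.6%) had one within 1000 bp. At the edge of the rule, peaks such as chr1:72790810-72791004 and chr3:5271966-5272160 touched a knockout-list peak with a gap of 0 bp and counted as input-only, whereas chr10:71382968-71383162 and chr15:96031209-96031403 overlapped one by 1 bp and counted as shared. The overlap of shared peaks had a median of 144 bp of the 195-bp width. The list labelled replicate-concordant held 5772 peaks, and each was a knockout-list peak that overlapped the input list, so no input-only peak was in it.

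Along the deposited order of the input list, which is not by coordinate and whose meaning no label states, the input-only share rose from 36.4% in the first 10% of the list to 93.6% in the last 10%. Of the first 1000 peaks 220 were input-only. The promoter peaks printed above stood at positions from 455 (Acnat2) to 22285 (Sucnr1). A like rise was seen along the deposited order of the knockout list. There the share of knockout-only peaks was 14.4% in the first 10% and 86.8% in the last 10%. By chromosome, the input-only share ran from 73.1% on chromosome 17 to 78.1% on chromosome 19 among autosomes and was 82.9% (330 of 398) on the X chromosome. All 4 peaks on Y and both on the mitochondrial genome were input-only.

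**Figure D3:**
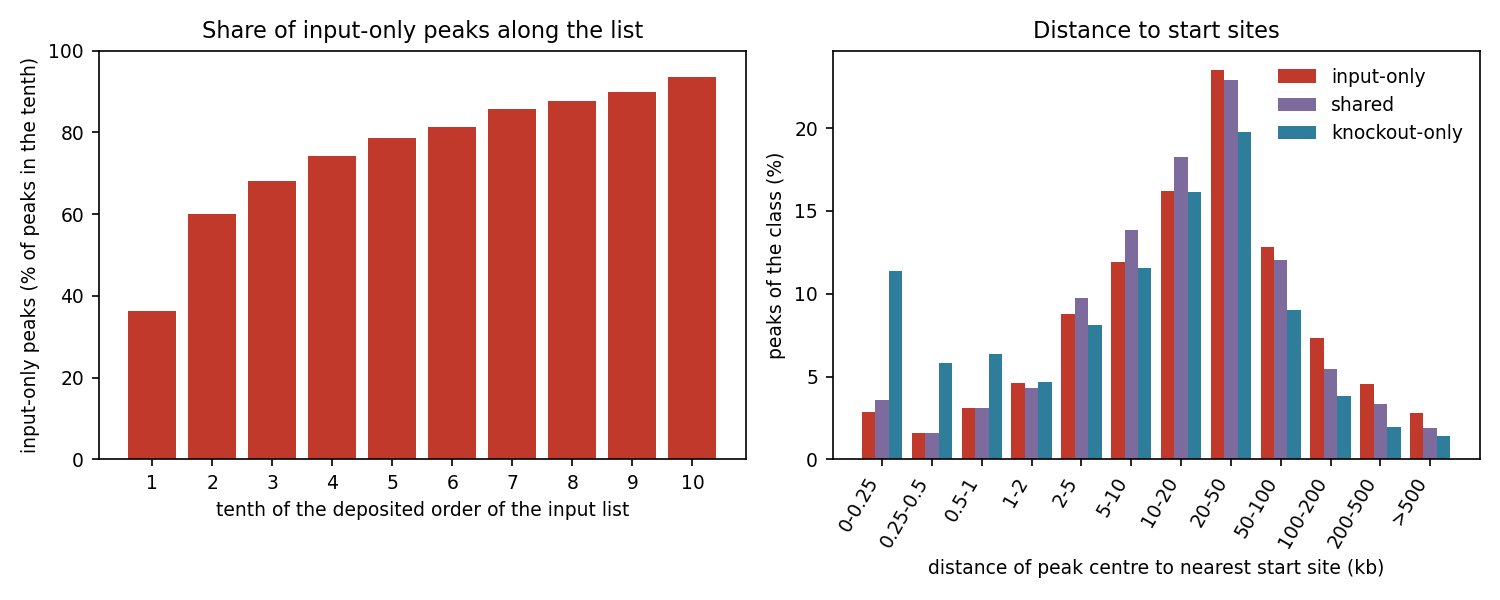
Left, percent of peaks in each successive 10% of the input list's deposited order that were input-only, rising from 36.4% to 93.6%. Right, percent of input-only, shared and knockout-only peaks by distance from peak centre to the nearest RefSeq start site, with 7.57%, 8.25% and 23.5% within 1 kb.

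Input-only peaks were densest at a small number of loci. The 2 fullest stretches of 100 kb held 14 each, 1 within Daam1 on chromosome 12, a formin-family gene, and 1 over Elf5 and Cat on chromosome 2, Cat being the gene for catalase. Knockout-list peaks lay there too, 9 in the Daam1 stretch and 3 in that of Elf5 and Cat, beside 1 and 2 shared peaks. The Serpina cluster on chromosome 12 (Serpina1e, Serpina11, Serpina9, Serpina12) held 13 input-only peaks in 97.9 kb beside 7 knockout-list peaks. Fkbp5, a chaperone of GR and a classic target, had 13 input-only, 4 shared and 8 knockout-list peaks in 93.3 kb. Its RNA fell by 1.77 ± 0.13 (log2, SE; adjusted p = 1.5e-11), from a GFP median of 140 CPM to a CRE median of 36 CPM. The fifth stretch lay at Aldh1a1 on chromosome 19 and held 13 input-only peaks and no peak of the knockout list.

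Aldh1a1, which encodes a retinaldehyde dehydrogenase, had the most input-only peaks of any gene without a knockout-list peak within 25 kb. There were 21, of which 14 lay inside its 151-kb interval (chr19:20492583-20643463), and the nearest knockout-list peak was 41.0 kb away. Its CPM ran from 261 to 807 (median 636) in GFP and from 732 to 1370 (median 1032) in CRE libraries. At each of the 6 times all CRE libraries lay above all GFP libraries, and the difference was 0.66 ± 0.08 (log2, SE; adjusted p = 7.2e-07). In C57BL/6 liver it was higher in fed than unfed mice by 0.21 ± 0.06 (adjusted p = 0.0046). The other genes with the most input-only peaks also had knockout-list peaks: Zbtb20 (31), Rora (27), Arhgap26 (24), Lpp (24) and Nfia (21), which include the transcription factors Zbtb20, Rora and Nfia. Their intervals were long, from 541 kb (Nfia) to 775 kb (Arhgap26), and the counts were not scaled by gene length. Of these 5, Nfia fell by 0.26 ± 0.08 (adjusted p = 0.030), a call that was lost without any of 8 single libraries and without the 6 libraries with over 20% NR_046233. The other 4 did not pass the test in CRE, with log2 differences from −0.07 (Arhgap26) to 0.09 (Zbtb20).

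Genes were then grouped by the peaks within 25 kb. Input-only peaks without a knockout-list peak lay near 2401 measured genes, of which 1646 passed the filter on low counts. In the mean of 6 times, 142 of these (8.63%) were higher and 61 (3.71%) lower in CRE, where 7.92% and 6.64% of all genes tested were. The 7154 tested genes with both kinds of peak had 11.5% higher and 9.92% lower, the 3904 with the knockout list alone 4.48% and 5.35%, and the 3008 with no peak 3.52% and 2.13%. The reading against the background depended on the window: of genes with input-only peaks alone, 18.9% were called when only the gene interval counted, 15.9% within 5 kb, 12.3% within 25 kb and 9.60% within 100 kb, where 14.6% of all genes were. Higher calls outnumbered lower ones at each of these windows (192 and 133, 196 and 105, 142 and 61, 57 and 30). They also did over all genes tested (1245 and 1044). The same held for genes with no peak (343 and 280, 208 and 150, 106 and 64, 42 and 14). Genes with both kinds of peak had 456 and 379, 590 and 511, 822 and 710, 1069 and 938. With the knockout list alone there were 254 and 252, 251 and 278, 175 and 209, 77 and 62. Genes with 1 input-only peak and no knockout-list peak had 5.33% higher and 3.12% lower, those with 2 had 11% and 3.11%, and those with 3 or more had 18.5% and 7.30%. Without the 6 libraries with over 20% NR_046233, 81 of 1720 such genes (4.71%) were higher and 36 (2.09%) lower, beside 4.42% and 3.94% of all genes. With the NR_046233 share as a covariate and all 36 libraries, 172 genes beside input-only peaks alone were called (121 higher, 51 lower). In that fit 12.5% of all genes tested were called. Why fewer genes were called in these 2 fits was not tested. The median log2 difference was 0.00 for the 1646 genes and 0.00 for all genes tested.

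**Figure D4:**
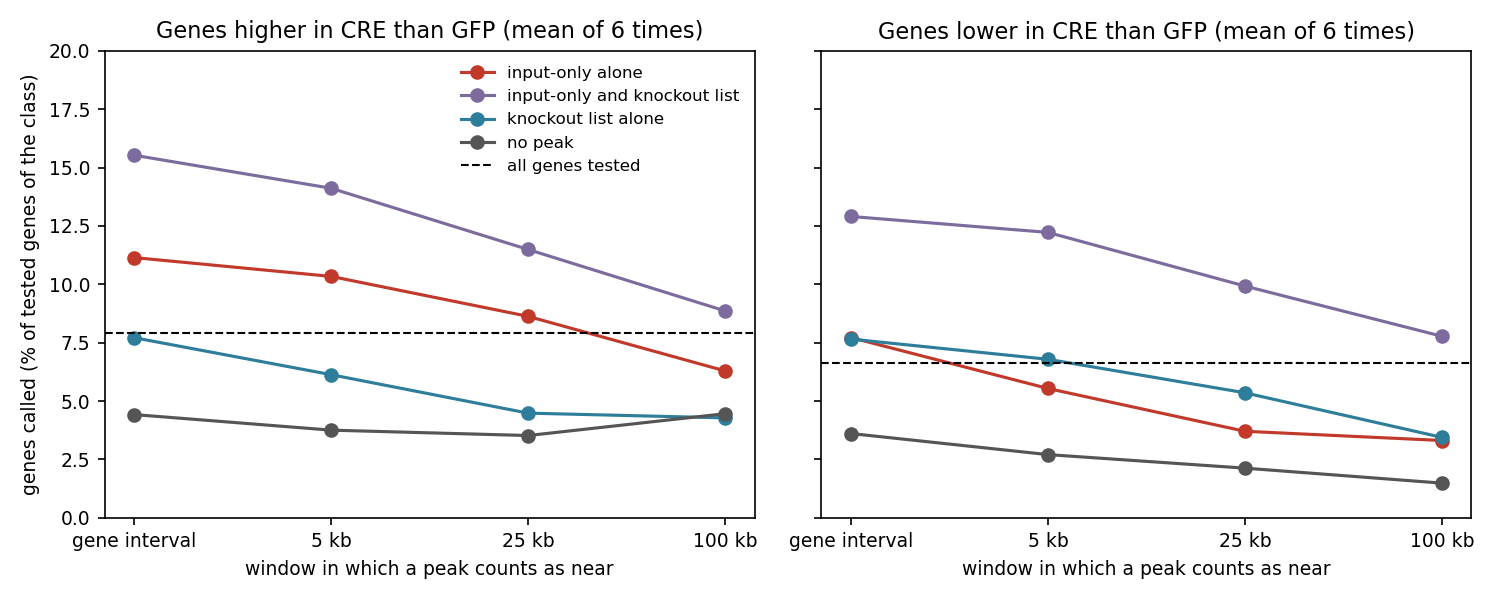
Percent of tested genes called higher (left) or lower (right) in CRE than GFP liver, by the kinds of peak near the gene and the window that counts as near; the dashed line is the share of all genes tested. With 25 kb, genes beside input-only peaks alone stood at 8.63% higher and 3.71% lower.

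The genes beside input-only peaks alone with the largest increases included 2 of the cytochrome P450 family. Cyp2b9 had 0 to 3.58 CPM in GFP libraries (median 0.025) and 0.299 to 108 CPM in CRE libraries (median 2.39). The CRE libraries were far apart, with 3.62, 10.6 and 108 CPM at ZT12, and the log2 difference was 5.68 ± 0.94 (adjusted p = 6.3e-05). Cyp2a4, a steroid-hydroxylating P450, rose by 3.26 ± 0.60 (adjusted p = 0.00022), from a median of 0.708 to 3.64 CPM. Serpina7, the gene for thyroxine-binding globulin, rose by 1.47 ± 0.16 (adjusted p = 1.1e-07), from a median of 8.21 to 24.8 CPM, with groups apart at 5 of 6 times. The peroxisomal fatty acid transporter Abcd2 (1.27 ± 0.23), the neurexophilin Nxph1 (1.21 ± 0.20) and the interferon-inducible GTPase Gbp10 (1.06 ± 0.21) also rose. Cyp2b9, Cyp2a4 and Gbp10 have near-identical relatives, so their counts are uncertain.

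Decreases beside input-only peaks alone were smaller. After Acnat2, Pfkfb1 fell by 0.72 ± 0.09 (log2, SE; adjusted p = 9.9e-07). It encodes the liver enzyme that makes and breaks fructose 2,6-bisphosphate, and its 3 input-only peaks lie inside the gene on the X chromosome, 848 kb from the nearest knockout-list peak. Pfkfb1 had 90.7, 86.3 and 112 CPM in the GFP and 31.7, 63.3 and 55.8 CPM in the CRE libraries at ZT10, and the groups did not overlap at 5 of the 6 times. Camk4, a calcium-dependent kinase (−0.70 ± 0.21), Avpr1a, a vasopressin receptor (−0.62 ± 0.10), and Tmem41a (−0.52 ± 0.07) also fell. The call for Camk4 was lost without the first GFP replicate at ZT10 and without the 6 libraries with over 20% NR_046233.

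At ZT10, the time of the ChIP, 6 of the 1646 genes passed the test, where 0.223% of all genes were higher and 0.471% lower. Igtp (1.31 ± 0.28), Irgm2 (0.80 ± 0.19), both interferon-inducible GTPases, Slc35f5 (0.41 ± 0.10) and Themis (1.56 ± 0.38), a T-cell signalling gene, were higher, and Pfkfb1 (−0.93 ± 0.22) and Dnah9 (−1.48 ± 0.31), an axonemal dynein, lower. That is 0.365% of the genes, beside 0.694% of all genes tested. Igtp had 15.3, 23.9 and 20.9 CPM in the CRE and 7.36, 8.51 and 8.74 CPM in the GFP libraries. The ribosomal RNA row NR_046233 took 23.8% to 28.2% of counts in the GFP libraries and 8.0% to 28.5% in the CRE libraries at ZT10. With that share as a covariate 2 of the 6 calls remained, those of Pfkfb1 and Dnah9. The ZT10 call of Pfkfb1 was lost without any of 16 single libraries. Slc35f5 lost its ZT10 call in 26 of the alternatives tried, and Themis in 14. By edgeR the count was 0 without the first GFP replicate, where 155 genes had an unadjusted p under 0.05.

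Known GR targets were flanked by input-only peaks as well. Of 33 such genes, 4 had knockout-list peaks alone within 25 kb. The other 29 had an input-only peak there, where 42.6% of all 24789 measured genes and 56.0% of those tested had one. All 29 also had a knockout-list peak. Of the 28 that could be tested, 21 were lower and 1 (Pdk4) higher in CRE, beside 6.64% lower and 7.92% higher of all genes, with a median log2 difference of −0.75 beside 0.00 for all genes. Lpin1, a phosphatidate phosphatase (−2.53 ± 0.10), Mt2, a metallothionein (−3.35 ± 0.38), and Zbtb16, a transcription factor (−2.17 ± 0.13), were among those that fell. Among the 29, 3 had no shared peak. Tdo2, for tryptophan breakdown, had 6 input-only and 2 knockout-only peaks and fell by 0.42 ± 0.06. Nfkbia, an inhibitor of NF-kappaB, had 4 and 1 and fell by 0.29 ± 0.08. Pdk4, which restrains pyruvate oxidation, had 6 and 1 and rose by 0.48 ± 0.14.

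Metabolic and regulatory genes were counted in the same way, in each list over the members near input-only peaks and beside the 7.92% higher and 6.64% lower of all genes tested. Of 19 glucose and glycogen genes 9 were lower in CRE and the other 10 did not pass the test (median log2 difference −0.28). Those with input-only peaks alone were Pfkfb1, which fell (above), and Pfkl, a phosphofructokinase subunit that did not pass the test (−0.07 ± 0.06). Of 16 amino acid and urea cycle genes 2 were higher and 10 lower (median −0.38). The 2 that rose were those with input-only peaks alone, Oat, ornithine aminotransferase (0.57 ± 0.12), and Otc, ornithine transcarbamylase (0.23 ± 0.04). The nearest knockout-list or shared peak was 29.4 kb from Oat, near the 25 kb limit, and 499 kb from Otc. Of 16 fatty acid oxidation genes 8 were higher and 1 lower (median 0.23), and Ehhadh, a peroxisomal oxidation enzyme and the member with input-only peaks alone, rose by 0.38 ± 0.07. Ehhadh lay 25.4 kb from the nearest knockout-list or shared peak, just outside the 25 kb limit. Of 21 lipid synthesis genes 8 were higher and 3 lower, and of 17 acute phase genes 7 were lower. Clock genes (17) had 5 higher and 4 lower, hepatocyte transcription factors (21) 3 and 4, insulin signalling genes (15) 2 lower, and immediate early and stress genes (12) 1 lower. Of 15 broadly expressed genes 1 was higher and 1 lower, a share near that of all genes.

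Markers of the cell types of liver differed in their surroundings. All 9 hepatocyte markers had an input-only peak within 25 kb, as did 9 of 11 endothelial and 3 of 10 stellate markers. Among all measured genes 42.6% had one. Of 11 Kupffer cell markers 0 had one, and 2 (C1qb and C1qc) had a knockout-list peak. All 9 hepatocyte markers and 7 of the 9 endothelial markers near input-only peaks had a knockout-list peak as well. Stab2, an endothelial scavenger receptor, had 5 input-only, 4 shared and 2 knockout-only peaks. Tek, the angiopoietin receptor, and the lectin Clec4g had input-only peaks alone, at 1 and 2. None of the 9 endothelial genes was called in CRE by edgeR, beside 14.6% of all genes tested. Of these 9 genes 1 had an unadjusted p under 0.05, DESeq2 called 1, and the median log2 difference was 0.01. The summed level of the 11 endothelial markers was 570 to 750 CPM in GFP and 560 to 825 CPM in CRE libraries, and that of the Kupffer markers 164 to 388 and 148 to 389 CPM. Hepatocyte markers summed to 64963 to 93914 CPM (median 77281) in GFP and 60083 to 83157 (median 70294) in CRE libraries. Of these 9 markers 3 were lower in CRE, beside 6.64% of all genes tested. Red blood cell markers summed to 60.6 to 120 CPM (median 83.2) in GFP and 68.8 to 129 (median 106) in CRE libraries. Alas2, a heme synthesis enzyme of red cell precursors and the one red cell marker near an input-only peak, rose by 0.36 ± 0.06 (log2, SE; adjusted p = 4.7e-05). With feeding, 8 of the 9 endothelial markers near input-only peaks were lower (median −0.28), beside 17.9% of all genes, and Clec4g fell by 0.28 ± 0.06 (adjusted p = 0.00062). The endothelial sum was 360 to 475 CPM in unfed and 291 to 402 CPM in fed libraries. The part of these cell types in the results was not tested.

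Of 6 highly expressed liver genes with a start under an input-only peak, 1 passed the test in CRE, beside 14.6% of all genes. They were Gc, the vitamin D-binding protein, Apoa2, an apolipoprotein, Rbp4, the retinol carrier, Mup7, a major urinary protein, Mgst1 and Serpinc1, antithrombin. Gc, Apoa2, Rbp4, Mgst1 and Serpinc1 also had knockout-list peaks within 25 kb, and only Mup7 had input-only peaks alone. Rbp4 fell by 0.16 ± 0.04 (adjusted p = 0.011), a call lost without the 6 libraries with over 20% NR_046233. Mup7 had 41.2 to 1517 CPM in GFP and 17.9 to 1070 CPM in CRE libraries (log2 difference −0.32 ± 0.37), and near-identical relatives make its counts uncertain. Gc had 2720 to 3759 CPM in GFP and 2616 to 3146 CPM in CRE libraries (−0.08 ± 0.04, adjusted p = 0.18).

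Feeding in C57BL/6 liver moved genes beside input-only peaks alone in both directions. Of 1526 such genes tested, 247 (16.2%) were higher and 243 (15.9%) lower in fed mice, beside 17.5% and 17.9% of all genes tested and 35.4% in either direction. Without the 2 C57BL/6 libraries that stood apart, 229 were higher and 203 lower, and the genes named here with a change kept their calls. Mid1ip1, a lipogenic regulator, rose by 1.64 ± 0.11 (adjusted p = 1.6e-11), from an unfed median of 26.0 CPM to 72.8 CPM, with groups apart at all 4 times. Serpina7 (1.49 ± 0.19), Inhba, an activin subunit (1.44 ± 0.18), Actg1, cytoplasmic actin (1.24 ± 0.10), Slc22a28 (1.22 ± 0.20) and the steroid dehydrogenase Hsd3b5 (1.19 ± 0.26) followed. Cyp4a32, a fatty acid omega-hydroxylase, fell by 1.20 ± 0.08 (adjusted p = 2.0e-11). It lay 25.4 kb from the nearest knockout-list or shared peak, just outside the 25 kb limit. The predicted gene 4930523C07Rik had 6.30 to 11.1 CPM in the 12 fed and 12.5 to 19.7 CPM in the 12 unfed libraries, with no overlap over all times. Ribc1 (−0.86 ± 0.14), Cbx7, a Polycomb protein (−0.82 ± 0.09), Enc1 (−0.82 ± 0.13) and Clca3a1 (−0.78 ± 0.10) also fell. Of the genes with printed promoters, Fam107a (−1.47 ± 0.24), E030018B13Rik (−1.45 ± 0.19) and 1810053B23Rik (−1.97 ± 0.44) fell with feeding and Sucnr1 rose (0.60 ± 0.09).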

How the data were processed

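Peak lists were deposited as chromosome, start and end with no score; HOMER and mm10 are named in the submitters' processing notes without roles, and the unit of these columns is a position, not a signal. Starts were read as counting from 0. Lists were compared by interval overlap, and genes were placed by RefSeq intervals of GRCm38.p6. The members and gene lists were chosen with earlier results of these data known.

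RNA values are raw counts per RefSeq transcript as deposited by the authors. STAR is named in the submitters' processing notes, and no label states strand handling or filters. Reads from overlapping genes therefore cannot be told apart. Among named genes, Pfkfb1 and Alas2 overlap the interval of Apex2, Ribc1 that of Smc1a and Cbx7 that of Apobec3. Apoa2 overlaps that of Tomm40l, Zbtb20 that of Tigit and Arhgap26 that of Fgf1. Further named genes, such as Aldh1a1 and Acnat2, overlap other annotated genes. Of 40458 rows, 40218 matched 24789 genes, and for 7581 genes with several rows the row with the largest total was kept. Totals were 34.6 to 78.8 Mio counts per Nr3c1fl/fl library and 23.9 to 91.8 Mio per C57BL/6 library; unmatched rows, mostly ribosomal, took up to 28.6%. Low counts were mostly even (75.7% to 85.1%), so counts overstate independent fragments.

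edgeR 4.0.16 (R 4.3.3; TMM, filterByExpr, quasi-likelihood test) was fitted to all 36 Nr3c1fl/fl libraries and to all 27 C57BL/6 libraries, with Benjamini-Hochberg adjustment over all genes tested and a threshold of 0.05. Log2 differences are CRE minus GFP or fed minus unfed, with SE computed from the F statistic. The labels do not say that replicates came from separate animals, so p-values measure the spread between these samples. The fit was tested on simulated data. Levels are not compared between genes, since transcript lengths were not used here.

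Named genes were those of the gene lists beside input-only peaks alone (up to 4 a list, by smallest p), up to 6 higher and 6 lower per comparison with at least 5 CPM, the 6 with most input-only peaks, the 5 densest stretches, the 6 with the highest level whose start lay under an input-only peak, Nr3c1, and the promoters described. Genes called at ZT10, and list members given as examples, were named after their values were seen. DESeq2 1.42.0, other normalizations, filters, windows and libraries left out were tried as alternatives. One gene that this rule names is not reported here. The rat hepatocyte table was not used here.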

Additional observations from a re-analysis of the deposited data

How the results depend on the processing

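The number of input-only peaks was 19386 when 50% of a peak had to be covered to count as shared, 17320 and 15472 when knockout-list peaks within 100 and 1000 bp also counted, and 17904 with starts counted from 1. The share near a protein-coding gene was 56.3% for the gene interval, 66.0% within 5 kb and 90.3% within 100 kb. The count of genes called in CRE beside input-only peaks alone (203 in the mean of 6 times) was 325 for the gene interval and 87 within 100 kb, and 117 without the 6 libraries over 20% NR_046233, which leaves ZT12 to ZT22; that setting was chosen after seeing the data and uses fewer samples. At ZT10 the count of 6 was 13 with DESeq2, 2 within 100 kb and 2 with the NR_046233 share as covariate. For fed against unfed mice the count of 490 was 211 within 100 kb; leaving out the 2 C57BL/6 libraries was also chosen after seeing the data. Leaving out single libraries gave 180 to 221 genes for the mean of 6 times, 0 to 9 at ZT10 and 433 to 505 for feeding. With the replicate number as a replicate block the counts were 201, 6 and 501; same-numbered libraries correlated from −0.21 to 0.17 (4 of 18 pairs over 0.1) in Nr3c1fl/fl and from −0.05 to 0.15 in C57BL/6 mice, and 18 of 36 and 8 of 24 libraries correlated best with their own number, so the numbers are not shown to pair the samples. Of 91 called values of named genes, 71 kept their call in every alternative and none changed direction. At ZT10 the calls of Igtp, Irgm2, Slc35f5, Themis and Fkbp5 were lost with the NR_046233 share as covariate. Counting every alternative, Slc35f5 lost its ZT10 call in 26, Themis in 14, Igtp and Irgm2 in 5 each and Fkbp5 in 4. Pfkfb1 lost its call without any of 16 single libraries, 5 of ZT10 and 11 of other times, and Dnah9 without any of 3 of ZT10. The cause was not tested. Because the lists hold no scores, how far peak calling depth set the input-only class was not tested.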
